A study of Mus musculus with 5 samples.

Results

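The Dlk1-Dio3 miRNA cluster is a run of miRNA genes inside an imprinted domain of mouse chromosome 12. Its members were chosen by miRNA number alone: every entry, of either arm of the hairpin, that carries 1 of 49 numbers known for this locus. The rule gave 87 of the 1316 miRNA entries listed for each library, 41 from the 5p arm and 46 from the 3p arm, and 38 of the 49 numbers were listed with both arms. No measured value was used in the choice, although results of these data were already known when the members were chosen.

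Small RNA libraries were sequenced from mouse germ cells and zygotes, 1 library per cell type, with inserts between 18 and 32 nucleotides. Primordial germ cells (PGCs) came from gonads of male CD-1 fetuses at 13.5 days post coitum and were taken with beads against CD15 (SSEA-1), a surface sugar of early germ cells, and checked by alkaline phosphatase. Spermatogonia came from CD-1 testes at 8.5 days after birth, after the somatic cells had been allowed to adhere, and per the labels they expressed Stra8 and lacked Fn1. Spermatozoa of CD-1 mice, from cauda epididymis and vas deferens, were passed through a Percoll gradient and a hypo-osmotic shock. Metaphase II oocytes, 15210 cells, came from superovulated C57BL/6 females of 4 to 5 weeks, and the 15416 zygotes were collected 15 to 18 hours after fertilization from the mating of C57BL/6 females to males of DBA/6J. Cumulus cells and the zona were removed from oocytes and zygotes. The male germ cells and the egg libraries thus differ in strain as well as in cell type, and the 2 cannot be told apart. The zygotes had DBA/6J fathers, so strain background and stage cannot be told apart between zygote and oocyte either. The labels give no genotype other than the strain.

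Imprinted genes are expressed from 1 parental chromosome. In the mouse Dlk1-Dio3 domain the protein-coding genes Dlk1, Rtl1 and Dio3 are active on the chromosome inherited from the father, while the non-coding RNAs Meg3, antisense Rtl1, Rian and Mirg are active on the one inherited from the mother, and the miRNAs and C/D box snoRNAs of the domain are cut from those non-coding transcripts. The choice between the parental states depends on a region of DNA methylation set in the male germ line after the marks of the previous generation have been erased in PGCs. The miRNAs are known for high levels in embryo, placenta and brain, and miR-127 and its neighbours, which lie opposite Rtl1, are perfectly complementary to its mRNA.

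Of the 49 numbers, 47 had a hairpin in the RefSeq table of GRCm38.p6, and these spanned chr12:109563692-109743795, or 180.1 kb, between Dlk1 at chr12:109452823-109463336 and Dio3 at chr12:110279068-110281097. Hairpins of miR-544 and miR-666 are named here without a position. Of the 47, 46 lay on the plus strand and 1, miR-299b, on the minus strand. The members fall into 4 stretches. The Meg3 side holds 6 numbers (11 entries), with miR-770 in an exon of Meg3 and the others outside any other annotated gene. The stretch opposite Rtl1 holds 5 numbers (10 entries), miR-431, miR-433, miR-127, miR-434 and miR-136, all opposite an exon of Rtl1, which runs on the minus strand at chr12:109589193-109600330. Between Rtl1 and Mirg lie miR-341 and miR-370 (3 entries), both in introns of Rian. The Mirg side holds the other 36 numbers (63 entries), from miR-379 to miR-410, of which 8 hairpins overlap a Mirg exon, 4 a Mirg intron and 22 no other annotated gene.

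Mature sequences from RefSeq (GRCm38.p6) matched 83 of the 87 members. Those of miR-376c-3p, miR-485-5p, miR-539-3p and miR-487b-3p are named only. Shown are the most abundant members and those whose levels or arms set the libraries apart. They are written 5′ to 3′, with the seed, bases 2 to 8, in capitals. Each of the first 5 was among the 10 highest members in each library:
miR-379-5p: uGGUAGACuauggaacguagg
miR-127-3p: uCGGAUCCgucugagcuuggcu
miR-541-5p: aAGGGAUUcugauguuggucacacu
miR-411-5p: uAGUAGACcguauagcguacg
miR-434-3p: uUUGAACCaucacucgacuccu
The partner of miR-434-3p on its hairpin, and 3 Mirg-side members with outlying levels in a library, read:
miR-434-5p: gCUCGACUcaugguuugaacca
miR-369-3p: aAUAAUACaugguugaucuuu
miR-410-3p: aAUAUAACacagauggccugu
miR-154-3p: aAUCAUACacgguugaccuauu
The 5p partner of miR-154-3p and the member that stood highest in spermatozoa relative to spermatogonia read:
miR-154-5p: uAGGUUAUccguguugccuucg
miR-136-5p: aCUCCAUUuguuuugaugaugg
The next 2 pairs share a seed and nearly the whole sequence:
miR-376b-5p: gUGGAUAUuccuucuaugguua
miR-376c-5p: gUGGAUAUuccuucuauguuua
miR-379-3p: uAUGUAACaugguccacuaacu
miR-411-3p: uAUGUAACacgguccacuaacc

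The cluster is not a seed family. Its 83 sequences, 18 to 25 bases long, carried 78 different seeds, and 34 of them began with U and 28 with A. Only 5 seeds were held by more than 1 member, each by a pair: UGGAUAU by miR-376b-5p and miR-376c-5p, AUGUAAC by miR-379-3p and miR-411-3p, AUGUGGG by miR-299a-3p and miR-299b-3p, AGGUCAC by miR-370-5p and miR-1193-3p, and GGUUGUC by miR-410-5p and miR-494-5p. A further 6 seeds also occurred in a miRNA from elsewhere in the genome. The seed of miR-411-5p was shared with miR-7229-5p, which had 0 RPM in the PGC, spermatogonia and oocyte libraries, 30.4 RPM in spermatozoa and 0.859 RPM in the zygote. The other shared seeds were those of miR-329-3p (with miR-362-3p), miR-410-3p (with miR-344d-3p), miR-377-5p (with miR-672-5p), miR-673-5p (with miR-6985-3p) and miR-134-3p (with miR-3620-5p).

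Some members are hard to count apart. miR-376b-5p and miR-376c-5p differ at 1 base of 22, and they were listed with fractional reads in the oocyte (114.5 and 21.5) and in the zygote (238.5 and 71.5), as entries that share reads can be. miR-379-3p and miR-411-3p differ at 2 bases of 22 and were fractional in the oocyte (35.5 and 58.5 reads). The 18 bases of miR-299b-3p are identical to the start of miR-299a-3p, so its 12 reads in spermatogonia and 2 in PGCs are uncertain. No other members had fractional reads. In the spermatogonia library no miRNA entry of any kind was fractional, whereas 14.8%, 17.7%, 13.1% and 15.3% of entries with reads were so in PGCs, spermatozoa, oocyte and zygote, and how reads of near-identical members were assigned there is not given in the sources used here.

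The libraries differed in depth. They held 12004614 miRNA reads in PGCs, 10657432 in spermatogonia and 1216358 in spermatozoa, with 2010462 in oocytes and 2327081 in zygotes. Levels are given as RPM, reads per 1000000 miRNA reads of the library. A count of 0 allows up to 3 counts, which is 0.250 RPM in PGCs, 0.281 in spermatogonia and 2.47 in spermatozoa, with 1.49 in oocytes and 1.29 in zygotes. Brackets give exact 95% intervals, which cover counting error only, since PCR copies are not independent molecules. With 1 library per cell type no difference has a replicate check, no test between cell types was made, and a difference of cell type cannot be told apart from one of library preparation. An RPM level also cannot tell fewer cells that express a miRNA from less of it per cell. As a check of the labels, the 13 miRNA numbers of the miR-290 and miR-302 clusters, markers of PGCs and the early embryo, summed to 35343 RPM in PGCs, against at most 9533 RPM (zygote) elsewhere. The miR-34 and miR-449 numbers of later spermatogenesis summed to 235995 RPM in spermatozoa, against at most 8295 RPM (oocyte) in the other libraries. Most of that sum was miR-34c-5p, at 221799 RPM in spermatozoa. Of the 8 entries 6 were detected there, while miR-449c-5p and miR-449a-3p had 0 reads.

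The cluster was present in each of the 5 libraries and was largest in spermatogonia. It held 93924 reads in PGCs, 373599 in spermatogonia and 4139 in spermatozoa, with 16057 in oocytes and 15114 in zygotes. That is 0.782% of miRNA reads in PGCs [0.777 to 0.787], 3.51% in spermatogonia [3.49 to 3.52] and 0.340% in spermatozoa [0.330 to 0.351], with 0.799% in oocytes [0.786 to 0.811] and 0.649% in zygotes [0.639 to 0.660]. The summed level was 7824 RPM in PGCs, 35055 in spermatogonia and 3403 in spermatozoa, with 7987 in oocytes and 6495 in zygotes. Per miRNA read, the oocyte and PGCs thus lay side by side in this order, and their intervals overlapped. They were far apart when scaled to the reads of 4 small RNA classes together (miRNA, snoRNA, piRNA and endo-siRNA). On that scale the cluster stood at 3536 RPM in PGCs and 371 RPM in oocytes, so the nearness depends on the total used. The spread between libraries of 1 cell type is not known. Members with reads numbered 76 in PGCs, 82 in spermatogonia and 47 in spermatozoa, with 64 in oocytes and 62 in zygotes, and those with at least 100 reads numbered 41, 46, 5, 15 and 16 in the same order. Across the libraries 40 of the 87 members had reads in each, 9 had reads in only 1, and 0 had none.

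**Figure D1:**
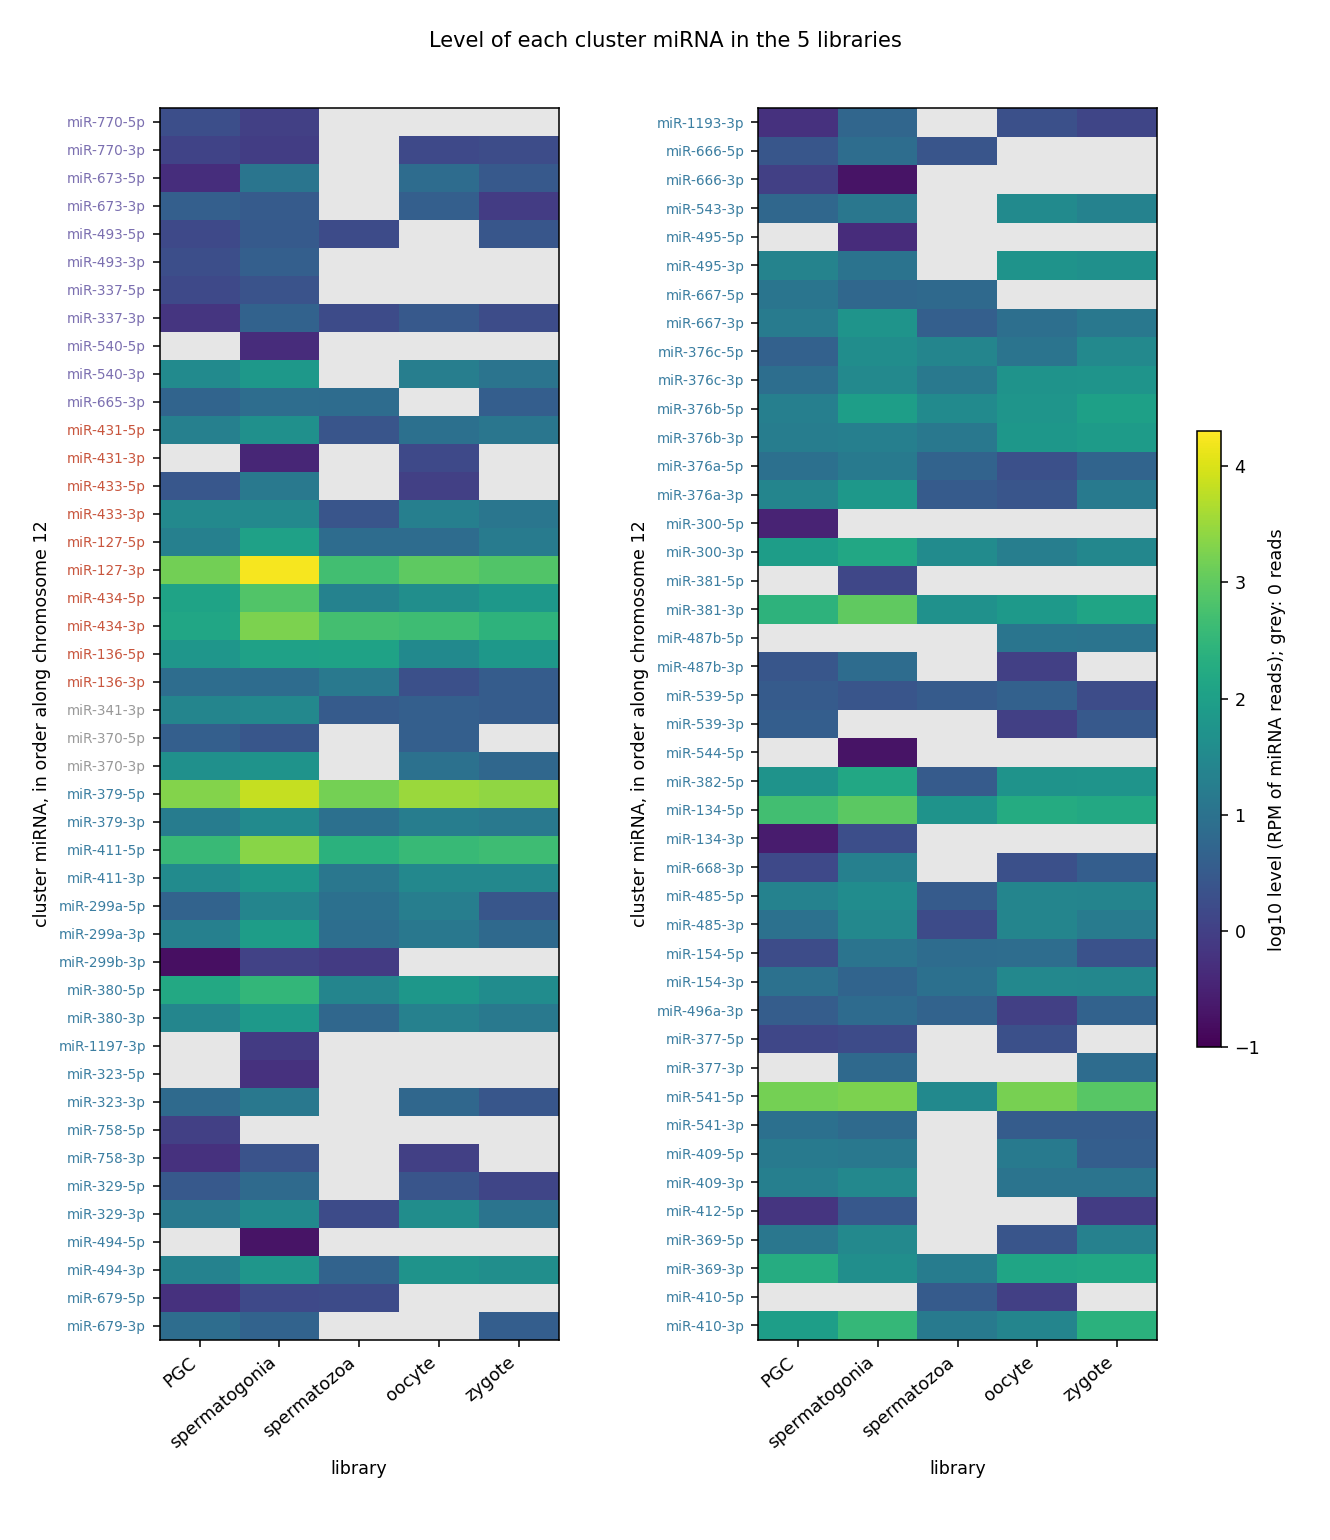
Level of each of the 87 cluster entries (rows, in order along chromosome 12, read down the left and then the right panel) in the 5 libraries (columns), as log10 of RPM, with 0 reads in grey. Row labels are violet for the Meg3 side, red for the stretch opposite Rtl1, grey for miR-341 and miR-370 and blue for the Mirg side. miR-379-5p, miR-127-3p and miR-411-5p are bright in each column, and the spermatozoa column, with 1216358 miRNA reads, is grey for 40 entries.

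A few members made up most of these reads. miR-379-5p, the first hairpin of the Mirg side at chr12:109709060-109709125, stood at 2114 RPM in PGCs, 6729.9 in spermatogonia and 1546 in spermatozoa, with 3243 in oocytes and 2577 in zygotes. It was the leading member in each library except spermatogonia and took 27.0% of cluster reads in PGCs, 19.2% in spermatogonia and 45.4% in spermatozoa, with 40.6% in oocytes and 39.7% in zygotes. miR-127-3p, at chr12:109592846-109592915 opposite Rtl1, stood at 1473 RPM in PGCs, 17254 in spermatogonia and 499 in spermatozoa, with 972 in oocytes and 723 in zygotes. In spermatogonia it alone gave 49.2% of the cluster's reads and was number 15 of all miRNA entries by level. In the other libraries its share was between 11.1% (zygote) and 18.8% (PGCs). miR-541-5p, in a Mirg intron at chr12:109742409-109742498, stood at 1559 RPM in PGCs, 1836 in spermatogonia and 32.1 in spermatozoa, with 1600.1 in oocytes and 837 in zygotes. It was the second member of the cluster in PGCs, oocyte and zygote but the 10th in spermatozoa, where it had 39 reads. The top 3 members together held 65.8% of cluster reads in PGCs, 74.8% in spermatogonia and 75.3% in spermatozoa, with 72.8% in oocytes and 63.7% in zygotes.

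The ratio of 2 members within a library does not depend on how libraries are scaled, and these ratios differed widely between libraries. There were 0.697 reads of miR-127-3p for each read of miR-379-5p in PGCs [0.684 to 0.710], 2.56 in spermatogonia [2.54 to 2.59] and 0.323 in spermatozoa [0.294 to 0.354], with 0.300 in oocytes [0.285 to 0.315] and 0.281 in zygotes [0.266 to 0.296]. The order of these members was thus turned round in spermatogonia, and in spermatozoa the ratio was near that of the egg libraries. For miR-541-5p the ratio to miR-379-5p was 0.737 in PGCs [0.723 to 0.751], 0.273 in spermatogonia [0.269 to 0.277] and 0.0207 in spermatozoa [0.0147 to 0.0285], with 0.493 in oocytes [0.473 to 0.515] and 0.325 in zygotes [0.309 to 0.342]. miR-411-5p, from the hairpin next to miR-379, kept nearer to it, with 0.181 reads per read of miR-379-5p in PGCs, 0.334 in spermatogonia and 0.156 in spermatozoa, with 0.114 in oocytes and 0.172 in zygotes. Taken over the 87 members, Spearman's rho of reads between libraries was highest for PGCs and spermatogonia (0.906) and for oocyte and zygote (0.888), and lowest for spermatozoa and oocyte (0.666). Over all 1316 entries the same pairs gave 0.823, 0.882 and 0.617, and since the points share libraries and depth these values are a description.

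**Figure D2:**
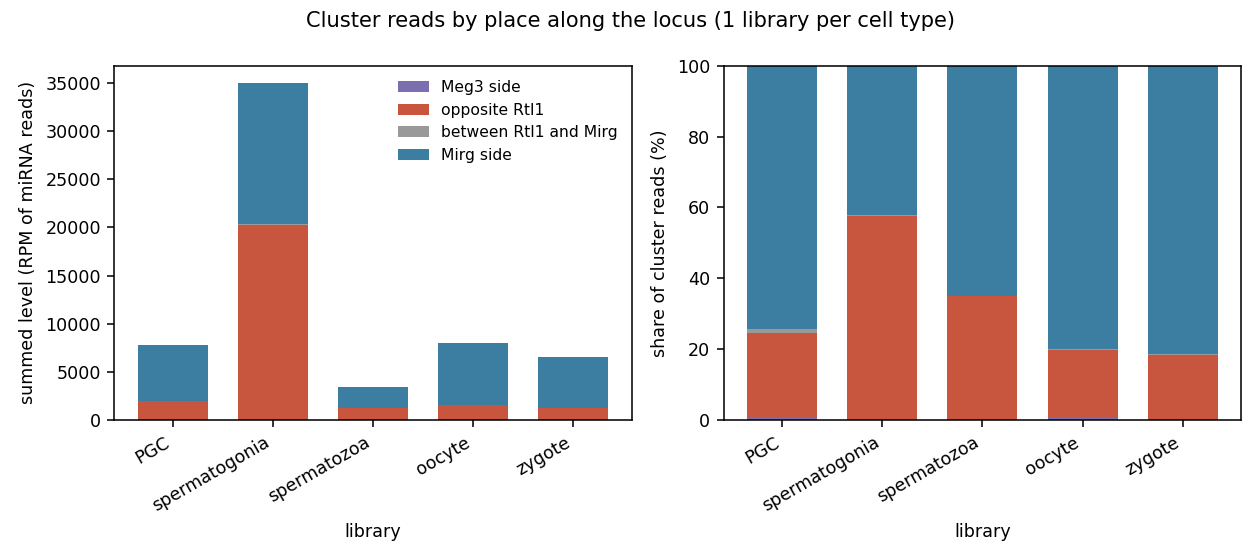
Summed level of the cluster in RPM of miRNA reads (left) and share of the cluster's reads in percent (right) in the 5 libraries, stacked by place along the locus. Spermatogonia have the highest bar, 35055 RPM, and the stretch opposite Rtl1 takes 57.4% of it, against 18.0% to 34.6% in the other libraries.

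The first comparison of the male line asks how small RNAs differ between spermatogonia after birth and fetal PGCs. The cluster's summed level was 35055 RPM in spermatogonia and 7824 RPM in PGCs, 4.48-fold higher [4.45 to 4.51]. Of the 87 members, 56 were measured, meaning at least 100 reads over both libraries. In the pair, 13 of the 56 were at least 4-fold higher in spermatogonia and 1 was at least 4-fold lower, against 25.7% higher and 12.6% lower among the 530 miRNA entries measured. The share of higher members, 23.2%, was near that background, and the share of lower ones, 1.79%, was below it. The median log2 ratio of the measured members was 1.19, with 48 of 56 above 0, beside 0.65 over all measured miRNAs, with 332 of 530 above 0. The counts depend on the scaling: with TMM factors 6 members were at least 4-fold higher, with DESeq2 size factors 7 and with the authors' deposited factor 5, and over all measured miRNAs TMM factors then gave 19.4% higher and 17.0% lower, DESeq2 factors 20.2% and 16.6%, and the deposited factor 18.5% and 18.5%. The members past 4-fold under each of these 3 factors were miR-127-3p, miR-434-3p, miR-668-3p, miR-673-5p and miR-376c-5p. Of the 13, 6 had fewer than 100 reads in PGCs and reached the read minimum through spermatogonia. The members' median log2 ratio was 0.54 with TMM factors, 0.58 with DESeq2 size factors and 0.47 with the deposited factor. Since a factor moves all ratios alike, the gap between the members' median and that of all miRNAs, 0.54 on the log2 scale, is the same under each.

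The members opposite Rtl1 had the highest median ratio of the 4 stretches. Of 9 measured there, 5 passed 4-fold upward, and the median log2 ratio there was 2.35. On the Mirg side 7 of 42 were higher and 1 lower, with a median of 1.21, and on the Meg3 side 1 of 3 was higher. Of the 5 opposite Rtl1 only miR-127-3p and miR-434-3p stayed past 4-fold under each of the TMM, DESeq2 and deposited factors. Of the 7 on the Mirg side only miR-668-3p and miR-376c-5p did. Both members in the Rian introns were nearly level, with a median of 0.19. The stretch opposite Rtl1 supplied 57.4% of the cluster's reads in spermatogonia, against 24.0% in PGCs, and the Mirg side 42.0% in spermatogonia, against 74.4% in PGCs.

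miR-127-3p, which can direct cleavage of the Rtl1 mRNA in the mouse, was 11.7-fold higher in spermatogonia [11.5 to 11.9], and its 5p partner was 5.23-fold higher [4.55 to 6.02]. miR-434-3p, the next hairpin, had 19418 reads (1822 RPM) in spermatogonia and 1649 reads (137 RPM) in PGCs, 13.3-fold higher [12.6 to 14.0]. miR-434-5p was 6.16-fold higher [5.82 to 6.52], at 731 RPM in spermatogonia and 119 RPM in PGCs. So both arms of the 2 hairpins lay past the 4-fold line, but with TMM factors and the deposited factor their 5p arms were within it (log2 ratios of 1.74 and 1.67 for miR-127-5p, and 1.98 and 1.91 for miR-434-5p), as was miR-127-5p with DESeq2 factors (1.77), while the 3p arms stayed past it. The other members opposite Rtl1 did not share it evenly. miR-433-5p had a log2 ratio of 2.35 but was within 4-fold under the TMM, DESeq2 and deposited factors. miR-136-5p was 1.78-fold higher [1.62 to 1.96] and its 3p partner had a log2 ratio of -0.09.

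The most abundant of the 7 higher members of the Mirg side was miR-411-5p, with 2247 RPM in spermatogonia and 381.8 RPM in PGCs, 5.89-fold higher [5.70 to 6.08]. It was within 4-fold under the TMM, DESeq2 and deposited factors. Both arms of miR-299a, the hairpin that follows it, also lay past the line, with log2 ratios of 2.40 (5p) and 2.14 (3p). They too were within 4-fold under the same factors. miR-376c-5p was 9.05-fold higher [6.78 to 12.3] and the near-identical miR-376b-5p 4.69-fold higher [4.06 to 5.43], though in this pair neither library had fractional reads for them. Under the TMM, DESeq2 and deposited factors miR-376b-5p was within 4-fold. miR-668-3p had 213 reads in spermatogonia and 18 in PGCs, and miR-154-5p had 118 in spermatogonia and 20 in PGCs. The highest ratio of the cluster, 22.5-fold [10.1 to 62.6], belonged to miR-673-5p of the Meg3 side, with 120 reads in spermatogonia and 6 in PGCs, and it passed the read minimum through the library in which it was high.

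Most of the other abundant members were higher by less than 4-fold. miR-379-5p was 3.18-fold higher [3.14 to 3.23]. miR-381-3p, at 1006 RPM in spermatogonia and 270.15 RPM in PGCs, was 3.73-fold higher [3.58 to 3.88], and miR-410-3p, at 334 RPM in spermatogonia and 92.0 RPM in PGCs, was 3.63-fold higher [3.39 to 3.89]. miR-134-5p, a regulator of dendritic spines in rat neurons, was 1.92-fold higher [1.86 to 1.99], at 939 RPM in spermatogonia and 488 RPM in PGCs. The abundant miR-541-5p differed by 1.18-fold [1.15 to 1.20], and this small difference turned round with TMM, DESeq2 and deposited factors and without the most abundant miRNAs (log2 ratios between -0.48 and -0.01, against 0.24 here). Its share of the cluster's reads was accordingly 5.24% in spermatogonia and 19.9% in PGCs.

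miR-369-3p was the exception. The hairpin lies in a Mirg exon at chr12:109743418-109743496, directly before miR-410 and the end of the cluster. The 3p form had 439 reads (41.2 RPM) in spermatogonia and 2301 reads (192 RPM) in PGCs, 4.65-fold lower [4.20 to 5.17], while its neighbour miR-410-3p and its own 5p partner, 2.48-fold [2.04 to 3.02], were higher. miR-495-3p, 2.26-fold lower [1.80 to 2.84], and miR-154-3p, 1.91-fold lower [1.37 to 2.69], came next. In all, 8 of the 56 measured members had a log2 ratio below 0, beside 198 of all 530 measured miRNAs.

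**Figure D3:**
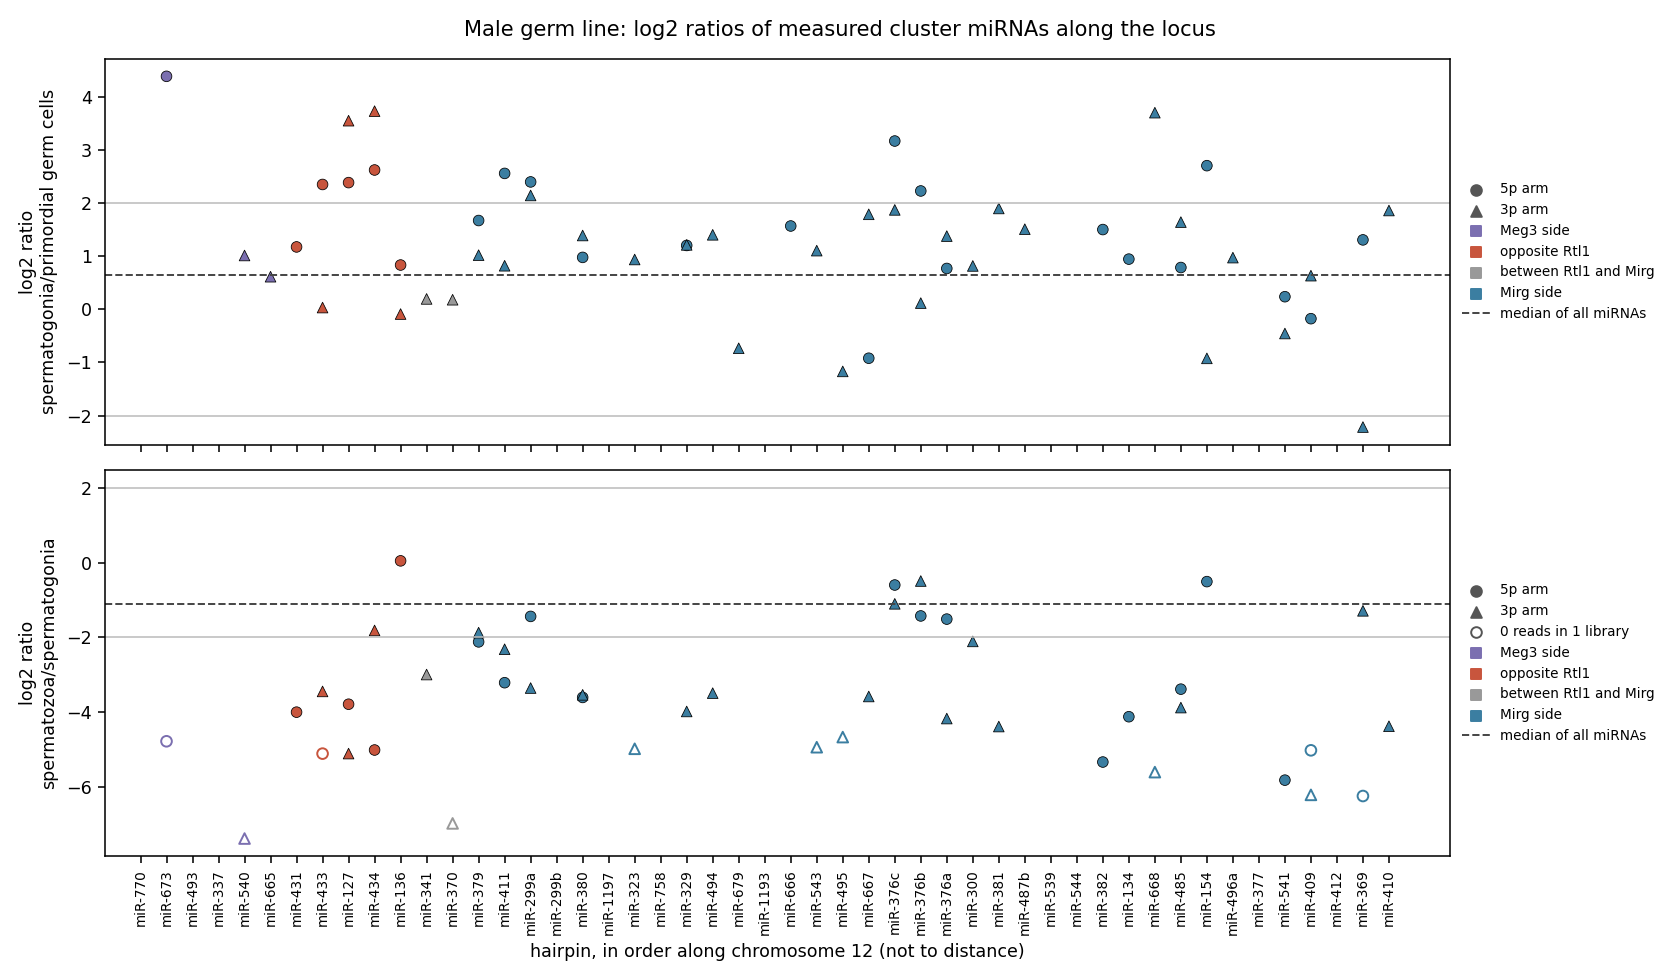
Log2 ratios of the measured cluster members for spermatogonia over PGCs (top) and spermatozoa over spermatogonia (bottom), by hairpin in order along chromosome 12. Circles are 5p and triangles 3p arms, colours give the place along the locus, grey lines mark 4-fold, the dashed line is the median of all miRNAs (0.65 and -1.10), and open symbols had 0 reads in spermatozoa, so their height depends on the 0.5-read pseudocount. Both arms of miR-127 and miR-434 lie above the upper 4-fold line in the top panel, miR-369-3p lies below the lower one, and no member lies above the upper line in the bottom panel.

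Ratios in this pair differed by arm, and by first base the members that begin with A stood lowest. Among 5p members 9 of 23 passed 4-fold upward and the median log2 ratio was 1.50, beside 0.64 over all 5p entries, of which 23.6% were higher and 15.0% lower. Among 3p members 4 of 33 were higher and 1 lower, with a median of 1.01, beside 0.57 over all 3p entries, of which 21.4% were higher and 11.8% lower. Of the 21 measured members that begin with U, like miR-127-3p and miR-434-3p, 8 were higher, with a median of 1.67, and of the 21 that begin with A, like miR-541-5p and miR-369-3p, 0 were higher and 1 lower, with a median of 0.83. The measured members that begin with G (3 of 7 higher, median 1.50) and with C (2 of 4 higher, median 1.66) were near those with U. Among miRNAs outside the cluster the order was another one. There 41 of 172 with a first U were higher (median 0.52) and 37 of 103 with a first A were (median 0.86). With a first G 11 of 37 were higher (median 0.91), and with a first C 13 of 67 (median 0.27). These counts move with the scaling. With the deposited factor the 3p members miR-127-3p, miR-434-3p and miR-668-3p and the 5p members miR-673-5p and miR-376c-5p stayed past 4-fold upward. With TMM factors miR-154-5p did too. The 5p members miR-673-5p, miR-299a-5p, miR-376c-5p, miR-154-5p and miR-433-5p had 6 to 58 reads in PGCs, and miR-668-3p had 18. They reached the read minimum through spermatogonia. These groupings were chosen with the values known and are a description.

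Markers of somatic cells differed between the same libraries. The 8 entries listed for smooth muscle and peritubular cells summed to 233429 RPM in spermatogonia (8 of 8 detected) and 9283 RPM in PGCs (7 of 8), nearly all of it miR-143-3p, at 230893 RPM in spermatogonia and 9230.2 RPM in PGCs. The 2 endothelial entries summed to 9053 RPM in spermatogonia and 1051 RPM in PGCs, and the 2 entries of miR-202, listed for gonadal somatic cells, to 14981 RPM in spermatogonia and 1734 RPM in PGCs. The 3 erythroid entries summed to 1774 RPM in spermatogonia and 188 RPM in PGCs, and each entry of these 3 lists was detected in both libraries. The 7 leukocyte entries summed to 304 RPM in spermatogonia (7 detected) and 588 RPM in PGCs (5 detected). Most of this was miR-142-3p, at 195 RPM in spermatogonia and 532 RPM in PGCs, while miR-150-5p had 48.5 RPM in spermatogonia and 3.25 RPM in PGCs and miR-223-3p had 16.7 RPM in spermatogonia and 2.17 RPM in PGCs. The 12 epithelial entries summed to 1112 RPM in spermatogonia (8 detected) and 1497 RPM in PGCs (10 detected). The 7 neuronal entries summed to 340.9 RPM in spermatogonia and 3920.3 RPM in PGCs, with 6 detected in each. The difference was nearly all miR-9-5p, at 117 RPM in spermatogonia and 3698 RPM in PGCs, while miR-128-3p had 151 RPM in spermatogonia and 123 RPM in PGCs and miR-124-3p 16.7 RPM in spermatogonia and 18.3 RPM in PGCs. The part of these cells in the cluster's levels was not tested.

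The second comparison follows the male line from spermatogonia to the finished spermatozoon. The cluster summed to 3403 RPM in spermatozoa and 35055 RPM in spermatogonia, 10.3-fold lower [9.99 to 10.6]. In spermatozoa 35 of 46 measured members, or 76.1%, passed 4-fold downward and 0 passed it upward. Over all 471 measured miRNAs 37.2% were lower and 14.9% higher. The median log2 ratio of the members was -3.70, or -3.29 with members at 0 reads in spermatozoa set to 3 counts, beside -1.10 over all measured miRNAs. This comparison shares the spermatogonia library with the one before, and all 46 members reached 100 reads in spermatogonia but only 5 did so in spermatozoa, so the read minimum selected members that were high in spermatogonia. Scaled to the reads of the 4 small RNA classes together, the log2 ratio of the sums was -6.22 and all 46 members were lower, as were 76.0% of all measured miRNAs, with 3.82% higher. With the deposited factor it was -5.49, again with 46 members lower, and with 66.2% of all miRNAs lower and 5.31% higher.

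The 5 members that spermatozoa held with at least 100 reads were miR-379-5p at 1546 RPM, miR-434-3p at 517, miR-127-3p at 499, miR-411-5p at 241.7 and miR-136-5p at 113 RPM. miR-379-5p was 4.35-fold lower [4.16 to 4.56] in spermatozoa and miR-411-5p 9.30-fold lower [8.29 to 10.46]. miR-127-3p, at 499 RPM in spermatozoa and 17254 RPM in spermatogonia, was 34.6-fold lower [31.9 to 37.5]. Its neighbour miR-434-3p was 3.52-fold lower [3.25 to 3.82], at 517 RPM in spermatozoa and 1822 RPM in spermatogonia, so these 2 members, which both stood out in spermatogonia, were at nearly the same level in spermatozoa.

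The largest difference among members with reads on both sides was that of miR-541-5p, at 39 reads (32.1 RPM) in spermatozoa and 19571 reads (1836 RPM) in spermatogonia, 57.3-fold lower [41.9 to 80.6]. miR-382-5p was 45.5-fold lower [17.7 to 167], on 4 reads in spermatozoa. A further 11 measured members had no read in spermatozoa. Among them miR-540-3p was at least 27.8-fold lower, miR-370-3p at least 21-fold, miR-369-5p at least 12.6-fold and miR-409-3p at least 12.4-fold, and the others between at least 4.22-fold (miR-495-3p) and at least 8.10-fold (miR-668-3p). These bounds follow the depth of the spermatozoa library, where 3 counts are 2.47 RPM.

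Of the measured members, 11 were within 4-fold. miR-136-5p, opposite Rtl1 at chr12:109595327-109595388, was the only one above 0, with 113 RPM in spermatozoa and 110.25 RPM in spermatogonia, 1.03-fold [0.856 to 1.23], and it fell below 0 with all 4 classes as the total (-2.81) and with the deposited factor (-2.08). The others included miR-376b-3p (log2 ratio -0.49), miR-154-5p (-0.51), miR-376c-5p (-0.60), miR-376c-3p (-1.10), miR-369-3p (-1.29), miR-376b-5p (-1.43) and miR-376a-5p (-1.51), so 5 of the 11 were from the miR-376 hairpins. These 5 rest on 6 to 41 reads in spermatozoa and miR-154-5p on 9, and miR-376b-5p and miR-376c-5p are near-identical. Along the locus 2 of 2 measured members of the Meg3 side and 6 of 8 opposite Rtl1 were past 4-fold downward. So were 2 of 2 in the Rian introns and 25 of 34 on the Mirg side, beside 37.2% of all 471 measured miRNAs. Of these 35 members, 32 were under the read minimum in spermatozoa and reached it through spermatogonia. The counts by stretch are thus a description and no support for a pattern along the locus. The median log2 ratio was -3.90 opposite Rtl1 and -3.56 on the Mirg side, and 3 of the 4 members of the other stretches had no read in spermatozoa. Across 44 members with a sequence the log2 ratio fell with the share of G and C, with Spearman's rho of -0.46, and across all 385 measured miRNAs with a sequence rho was -0.39. The 44 include the 11 members with 0 reads in spermatozoa, whose ratios depend on the 0.5-read pseudocount. In spermatogonia against PGCs these values were 0.12 over 53 members and 0.17 over all 432. The points share libraries, and the values are descriptions.

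The marker lists stood otherwise in this pair. The smooth muscle and peritubular entries summed to 231690 RPM in spermatozoa (7 of 8 detected) and 233429 RPM in spermatogonia (8 of 8). This sum was nearly all miR-143-3p, at 230279 RPM in spermatozoa and 230893 RPM in spermatogonia, while miR-145a-5p had 459 RPM in spermatozoa and 2149 RPM in spermatogonia and miR-1a-3p had 904 RPM in spermatozoa and 295.2 RPM in spermatogonia. The endothelial entries had 375 RPM in spermatozoa and 9053 RPM in spermatogonia and the miR-202 entries 103 RPM in spermatozoa and 14981 RPM in spermatogonia. The epithelial entries summed to 23385 RPM in spermatozoa (12 of 12) and 1112 RPM in spermatogonia (8 of 12), the erythroid ones to 18886 RPM in spermatozoa and 1774 RPM in spermatogonia, the leukocyte ones to 3106 RPM in spermatozoa and 304 RPM in spermatogonia and the neuronal ones to 1729 RPM in spermatozoa and 340.9 RPM in spermatogonia. Of the last 3 lists, 3 of 3, 6 of 7 and 7 of 7 entries were detected in spermatozoa. Their part in the cluster's level in spermatozoa was not tested.

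The third comparison, zygote with oocyte, asks what differs at fertilization, and here the cluster was nearly level. It summed to 6495 RPM in the zygote and 7987 RPM in the oocyte, 1.23-fold lower [1.20 to 1.26], a direction that is turned round by the authors' deposited scaling factor (log2 ratio 0.46 against -0.30 here). In the zygote 1 of 24 measured members passed 4-fold upward and 0 passed it downward, with 2.01% higher and 1.34% lower among all measured miRNAs. The median log2 ratio was -0.03 in the cluster and -0.01 over all measured miRNAs, and 12 of the 24 members were above 0. With the deposited factor 5.35% of all measured miRNAs were higher and 0.334% lower, and miR-410-3p was still the only member past the line.

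That 1 member was miR-410-3p, cut from the last hairpin of the cluster, in a Mirg exon at chr12:109743715-109743795. It had 569 reads (245 RPM) in the zygote and 51 reads (25.4 RPM) in the oocyte, 9.64-fold higher [7.23 to 13.1], and reached the read minimum through the zygote. Against miR-379-5p of the same library it stood at 0.0949 reads per read in the zygote [0.0869 to 0.103] and 0.00782 in the oocyte [0.00582 to 0.0103], so the difference does not rest on scaling. The level was 92.0 RPM in PGCs and 334 RPM in spermatogonia, with 15.6 RPM in spermatozoa (19 reads), so the zygote's level was above that of both gametes. Against spermatozoa the zygote was 15.7-fold higher [9.93 to 26.2]. miR-369-3p, from the hairpin just before it, was at 144.4 RPM in the zygote and 132.8 RPM in the oocyte, 1.09-fold [0.923 to 1.28].

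The other members stayed within 4-fold. miR-136-5p was 2.10-fold higher in the zygote [1.56 to 2.85], at 67.9 RPM in the zygote and 32.3 RPM in the oocyte. miR-376b-5p was 1.80-fold higher [1.44 to 2.28], on fractional reads. miR-329-3p was lowest, with 26 reads in the zygote and 79 in the oocyte, 3.52-fold lower [2.23 to 5.71]. miR-541-5p was 1.91-fold lower [1.81 to 2.02] and miR-434-3p 1.69-fold lower [1.53 to 1.88]. Among the leading members, miR-379-5p was 1.26-fold lower [1.22 to 1.30], miR-127-3p 1.35-fold lower [1.26 to 1.44] and miR-411-5p 1.21-fold higher [1.10 to 1.33] in the zygote. The deposited factor turned round the direction of miR-379-5p and miR-127-3p, as it did for the sum. These intervals do not reach a ratio of 1 but cover counting only, and with 1 library each the differences cannot be set against a spread between libraries. Of the marker lists, the miR-202 entries summed to 2789 RPM in the zygote and 5723 RPM in the oocyte, the smooth muscle and peritubular ones to 21338 RPM in the zygote and 26935 RPM in the oocyte, the neuronal ones to 1215 RPM in the zygote and 1119 RPM in the oocyte, and the epithelial ones to 9933 RPM in the zygote and 9978 RPM in the oocyte. The part of such cells was not tested.

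**Figure D4:**
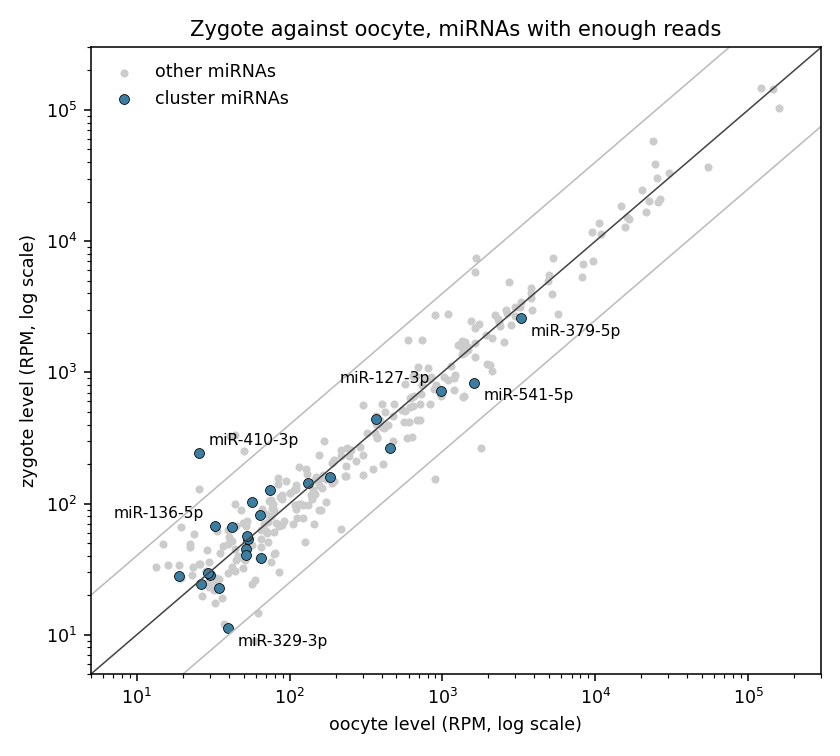
Level of each miRNA with at least 100 reads over both libraries in the zygote (vertical) and the oocyte (horizontal), in RPM on log axes, with cluster members in blue and other miRNAs in grey. The dark line marks equal levels and the light lines 4-fold, and miR-410-3p, at 245 RPM in the zygote and 25.4 RPM in the oocyte, is the 1 cluster member outside them.

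The fourth comparison set the zygote against spermatozoa. The cluster summed to 6495 RPM in the zygote and 3403 RPM in spermatozoa, 1.91-fold higher [1.84 to 1.98]. In the zygote 7 of 20 measured members passed 4-fold upward and 0 passed it downward, while 26.3% of the 308 measured miRNAs were higher and 25.6% lower. The median log2 ratio of members was 1.56, beside 0.13 over all. All 7 had 0 to 39 reads in spermatozoa and reached the read minimum through the zygote, where 16 of the 20 had at least 100 reads, against 5 in spermatozoa, so their number and the median are no support for a difference. With TMM factors and with the deposited factor 12 members were higher, while 32.5% of all passed it upward and 18.2% downward under TMM, and 34.1% and 15.6% under that factor of the authors. All 7 were from the Mirg side, which held 16 of the 20 measured members. The abundant one was miR-541-5p, with 837 RPM in the zygote and 32.1 RPM in spermatozoa, 26.1-fold higher [19.03 to 36.8]. miR-382-5p was 17.1-fold higher [6.53 to 63.8], miR-369-3p 8.78-fold [5.60 to 14.6], miR-494-3p 8.28-fold [3.66 to 23.1] and miR-376b-3p 6.21-fold [3.72 to 11.1]. miR-495-3p had no read in spermatozoa and 104 in the zygote, at least 18.1-fold higher. The 4 measured members opposite Rtl1 were within 4-fold, but 3 of these 4 had at least 100 reads in spermatozoa, unlike the 7. Of the 4, 2 were lower in the zygote: miR-434-3p by 1.94-fold [1.74 to 2.18] and miR-136-5p by 1.67-fold [1.32 to 2.11]. The direction of miR-136-5p was turned round by the deposited factor (log2 ratio 0.21 against -0.74 here). miR-300-3p of the Mirg side came next, with a log2 ratio of -0.35.

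Between the gametes, spermatozoa with oocyte, the same library of spermatozoa entered again. The cluster summed to 3403 RPM in spermatozoa and 7987 RPM in the oocyte, 2.35-fold lower [2.27 to 2.43]. In spermatozoa 0 of 17 measured members passed 4-fold upward and 6 passed it downward, against 26.7% higher and 26.3% lower among 300 measured miRNAs. The median log2 ratio was -1.34 in the cluster and -0.09 over all. All 6 had 0 to 39 reads in spermatozoa and reached the read minimum through the oocyte, where 15 of the 17 had at least 100 reads, against 5 in spermatozoa, so this count too is a description. The 6 were miR-541-5p, 49.9-fold lower [36.4 to 70.3], miR-382-5p, 16.0-fold lower [6.08 to 59.9], miR-494-3p, 10.49-fold lower [4.66 to 29.2], miR-369-3p, 8.08-fold lower [5.13 to 13.4], miR-376b-3p, 4.84-fold lower [2.87 to 8.72], and miR-495-3p, at least 20.97-fold lower. miR-136-5p stood 3.51-fold higher in spermatozoa [2.59 to 4.79] and miR-434-3p 1.15-fold higher [1.03 to 1.27], the last turned round by TMM factors (log2 ratio -0.37), by the deposited factor and without the most abundant miRNAs. miR-411-5p, next in order, had a log2 ratio of -0.61.

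The share of a hairpin's reads on its 3p arm is free of library scaling. Of the 38 hairpins with both arms listed, 27 had at least 100 reads in 2 or more libraries. In 16 of these the 3p arm and in 7 the 5p arm was the dominant one throughout. In 1, miR-485, the 5p arm led except for equal reads in the oocyte, and in 3 (miR-376c, miR-376b and miR-154) the dominant arm differed between libraries. The abundant hairpins were steady: the 3p share of miR-127 lay between 97.8% (zygote) and 99.4% (spermatogonia), and that of miR-379 between 0.512% (spermatogonia) and 0.801% (PGCs). Over the libraries with at least 100 reads, the 3p share was also at most 0.584% for miR-541 and 0.199% for miR-134, and at least 95.7% for miR-495, 99.7% for miR-494, 99.9% for miR-381 and 100% for miR-410. It lay between 4.82% and 11.4% for miR-136, between 2.75% and 8.61% for miR-411 and between 14.5% and 26.8% for miR-380. The arms of miR-485 were closer, with a 3p share from 30.1% in PGCs to 50% in the oocyte.

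miR-434 was not steady. Its 3p share was 53.6% in PGCs [51.8 to 55.4], 71.4% in spermatogonia [70.8 to 71.9] and 95.9% in spermatozoa [94.1 to 97.3], with 91.4% in oocytes [89.5 to 93.1] and 80.1% in zygotes [77.1 to 82.8]. The intervals of the 3 male libraries do not overlap, and the arms were closest to equal in PGCs. miR-369 went the other way in spermatogonia: its 3p share was 93.8% in PGCs [92.8 to 94.8], 56.9% in spermatogonia [53.4 to 60.5], 98.2% in the oocyte [95.8 to 99.4] and 87.3% in the zygote [83.5 to 90.4], and in spermatozoa all 20 reads were 3p.

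Of the hairpins whose dominant arm differed, miR-154 and miR-376c had the 5p arm ahead in spermatogonia and the 3p arm ahead in the other libraries with at least 100 reads. The 3p share of miR-154 was 31.4% in spermatogonia [24.5 to 38.9] and 85.3% in PGCs [78.2 to 90.8]. That of miR-376c was 44.0% in spermatogonia [40.4 to 47.7] and 66.0% in PGCs [57.9 to 73.5], and it was 83.4% in the oocyte and 63.8% in the zygote. For miR-376b only the oocyte had the 3p arm ahead, at 52.8% [46.4 to 59.3], on fractional reads and with an interval that holds 50%. Its 3p share was 17.2% in spermatogonia [15.1 to 19.5] and 47.3% in PGCs [42.6 to 52.1], with 44.3% in the zygote. miR-376 hairpins are known targets of A-to-I RNA editing in mouse brain, and the tables used here list no edited forms. The 3p share of miR-667 was 90.2% in spermatogonia [87.6 to 92.4] and 58.2% in PGCs [52.6 to 63.6], and that of miR-433 was 68.9% in spermatogonia and 91.8% in PGCs. In all, the 3p share differed by at least 20 percentage points between spermatogonia and PGCs in 6 of 27 cluster hairpins (22.2%) and in 16 of 184 other hairpins (8.70%). The 6 include miR-376b and miR-376c, whose 5p arms are near-identical. Between zygote and oocyte the share differed so in 0 of 12 cluster hairpins and in 1 of 131 others. For spermatozoa the counts were 1 of 5 and 17 of 120 against spermatogonia, 0 of 5 and 10 of 105 against the zygote, and 0 of 4 and 9 of 101 against the oocyte.

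**Figure D5:**
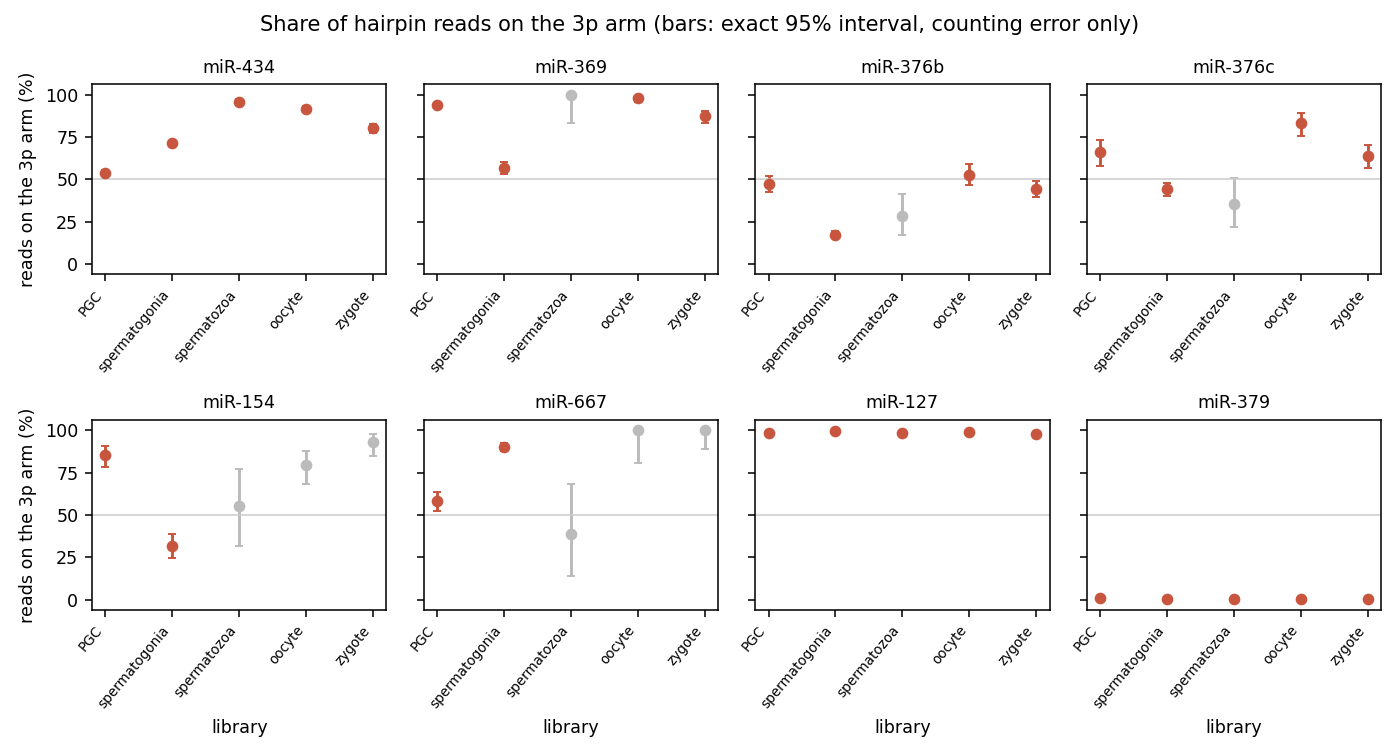
Share of a hairpin's reads on the 3p arm, in percent, for 8 cluster hairpins in the 5 libraries, with exact 95% intervals for counting error. Red points rest on at least 100 reads and grey points on fewer, and the line marks 50%. miR-127 and miR-379 stay near the upper and lower edge. Among red points, miR-434 lies between 53.6% in PGCs and 95.9% in spermatozoa and miR-154 between 31.4% in spermatogonia and 85.3% in PGCs. The grey zygote point of miR-154 is higher, at 93.1%.

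Other small RNAs of the domain were also counted. Rian carries long arrays of C/D box snoRNAs, and the snoRNA tables hold a joint entry for SNORD113 and SNORD114. Its reads ran from 8 in spermatozoa to 589 in spermatogonia. As RPM of the 4 small RNA classes together (miRNA, snoRNA, piRNA and endo-siRNA) this was 6.02 in PGCs, 22.4 in spermatogonia and 0.367 in spermatozoa, with 3.03 in oocytes and 3.28 in zygotes. The miRNA cluster on the same scale had 3536 in PGCs, 14181 in spermatogonia and 190 in spermatozoa, with 371 in oocytes and 350 in zygotes. Spermatogonia were highest and spermatozoa lowest on this scale for both. Relative to snoRNA reads alone the oocyte and zygote stood above spermatogonia, with 21.3 RPM of snoRNA reads in PGCs, 115 in spermatogonia and 7.78 in spermatozoa, with 175 in oocytes and 240 in zygotes. With SNORD60, which held most snoRNA reads in each library, left out of that total, spermatogonia were again highest and spermatozoa lowest, at 241.6 in PGCs, 1559 in spermatogonia and 65.6 in spermatozoa, with 836 in oocytes and 1011 in zygotes. Between the outermost members RefSeq also places 9 hairpins that the rule does not include. Of these 3 (miR-3071, miR-1188 and miR-654) had entries, with 5 reads in PGCs, 25 in spermatogonia and 6 in spermatozoa, with 3 in oocytes and 5 in zygotes.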

How the data were processed

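Per the labels' protocols, total RNA was extracted with TRIzol and small RNAs were sequenced on an Illumina instrument. The submitters' processing notes name Bowtie 0.12.7, DESeq and mm10 but not what each was used for. How reads with several matches were counted is not given in the sources used here. The deposited read column holds expected counts, some of them fractional. A further deposited column, called TMM per the file headers, is a signal that equals the read column multiplied by a factor constant within a library. It served only as an alternative.

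Reads were divided by the library's miRNA total (RPM). Ratios used a pseudocount of 0.5 reads and at least 100 reads over the pair, and 4-fold differences were counted. With 1 library per group there is no test. Intervals at 95% are Clopper-Pearson for shares and, for ratios, conditional on the sum of both Poisson counts, on rounded reads. A fold against 0 reads is a bound from 3 counts in that library. Hairpin positions and sequences came from RefSeq (GRCm38.p6) and host genes from GENCODE M21. Of the snoRNA entries, 6 naming no single snoRNA were left out of totals. The ratio and call steps were tested on simulated data. Python 3.11.15, scipy 1.17.1, R 4.3.3, edgeR 4.0.16 and DESeq2 1.42.0 were used, the last 2 for scaling factors only.

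Members, lists and comparisons were chosen with earlier results of these data known. Named members were the 12 highest, the 3 highest and 3 lowest ratios of each comparison, all past 4-fold where 5 or fewer, hairpins with 100 reads in 3 or more libraries, and those whose dominant arm differed. Others, such as the remaining members past 4-fold and miR-667 and miR-433, were named after their values were seen. Alternatives were other scalings, read minimums of 20 and 1, a pseudocount of 5, totals without the 5 most abundant miRNAs of each library, leaving out fractional entries, and leaving out miR-127-3p.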

Additional observations from a re-analysis of the deposited data

How the results depend on the processing

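No paired analysis was possible because there was 1 library per cell type, and for the same reason no library could be left out. Log2 ratios of single members, 129 in all, were recomputed only for members named by the rules above, not for those named later. Among these no ratio at least 4-fold apart changed direction. Of the 774 recomputed values 305 moved outside the counting interval, and 37, of 19 ratios no larger than 0.75 here, changed sign. A pseudocount of 5 reads and leaving out fractional entries kept all 10 counts of members within 1.5 times. Depth limits the spermatozoa library most, with 5 members at 100 reads.

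Scaling moved the sums. For spermatogonia/PGC, spermatozoa/spermatogonia, zygote/oocyte, zygote/spermatozoa and spermatozoa/oocyte, where the main log2 ratios were 2.16, -3.36, -0.30, 0.93 and -1.23, they were 2.004, -6.22, -0.087, 0.88 and -0.97 with all 4 classes as the total, 1.52, -3.26, -0.21, 1.59 and -1.80 with TMM, 1.55, -2.79, -0.26, 1.13 and -1.40 with DESeq2 factors, 1.45, -5.49, 0.46, 1.89 and -1.43 with the deposited factor, and 1.92, -3.01, -0.35, 1.16 and -1.51 without the 17 most abundant miRNAs, none of them in the cluster. The deposited factor thus turned the zygote/oocyte sum round. Without miR-127-3p the sums gave 1.49 (spermatogonia/PGC), -2.62 (spermatozoa/spermatogonia) and 0.99 (zygote/spermatozoa). The shifts under other scalings follow from the scaling's own construction. Those without miR-127-3p do not, and show how much of the sum this member carries.

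Counts moved too. Members higher in spermatogonia than PGCs, 13 here, were 6 (TMM), 7 (DESeq2) and 5 (deposited factor), and those higher in the zygote than spermatozoa, 7 here, were 12 (TMM and deposited factor). With all classes as the total 1 of 17 members was at least 4-fold higher in spermatozoa than in the oocyte, beside 29.7% of all measured miRNAs. A minimum of 20 reads gave 2 of 73 lower in spermatogonia/PGC (14.2% of all miRNAs), 3 higher and 1 lower of 43 in zygote/oocyte (4.04% and 2.77% of all), 18 of 39 higher in zygote/spermatozoa (25.3% of all), and 1 higher and 15 lower of 40 in spermatozoa/oocyte (27.3% and 25.7% of all). A minimum of 1 read, which admits ratios of a few reads, gave 27 higher and 5 lower of 85 in spermatogonia/PGC (35.5% and 18.6% of all), 1 of 83 higher in spermatozoa/spermatogonia (31% of all), 8 and 8 of 69 in zygote/oocyte (16.4% and 13.2%), 28 and 5 of 67 in zygote/spermatozoa (20.4% and 40.4%), and 8 and 28 of 70 in spermatozoa/oocyte (42.8% and 22.3%). With 20 in place of 100 reads, 29 hairpins, not 16, had an arm share in 3 or more libraries, and the dominant arm differed in 9, not 3.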

Other observations

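miRNAs of other imprinted loci had patterns of their own. miR-335, in an intron of Mest, which is active on the paternal chromosome, summed over both arms to 2081 RPM in PGCs, 408.7 in spermatogonia and 49.3 in spermatozoa, with 2417 in oocytes and 3203 in zygotes. The miR-296 and miR-298 entries of Nespas summed to 517 RPM in PGCs, 301.6 in spermatogonia and 110.2 in spermatozoa, with 180 in oocytes and 171 in zygotes. Within the last sum miR-298-5p had 53.7 RPM in spermatogonia and 348 RPM in PGCs, while miR-296-3p had 113.2 RPM in spermatogonia and 70.2 RPM in PGCs and miR-296-5p had 133.99 RPM in spermatogonia and 98.1 RPM in PGCs. miR-675 of H19 had at most 1.13 RPM (spermatogonia) and was listed at 0 in spermatozoa, oocyte and zygote, and miR-483 of Igf2 had 25.3 RPM in spermatogonia and 5.00 RPM in PGCs, with at most 6.96 RPM (oocyte) elsewhere. The miR-344 entries of the Snrpn region summed to 18.8 RPM in PGCs, 28.4 in spermatogonia and 34.5 in spermatozoa, with 41.8 in oocytes and 64.0 in zygotes.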
